A study of Mus musculus with 4 samples.

Results

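The immediate early genes Fos, Fosb, Jun, Junb, Egr1, Atf3, Ier2 and Dusp1 and the inducible heat shock genes Hspa1a and Hspa1b were followed through single-cell libraries of the mouse embryonic heart. These 10 members were taken by symbol from the 32285 genes of the count matrices, and each symbol matched 1 gene. All 10 passed the filter on low counts in every comparison tested. The libraries came from C57BL/6J hearts at E10.5, with 2 libraries from wild-type embryos (Wt) and 2 from embryos of genotype Cyp51 I383V/I383V (Ho), which carry on both alleles a point mutation made by CRISPR/Cas9 in Cyp51, an enzyme of cholesterol synthesis. The labels name CRISPR/Cas9 as the treatment of all 4 libraries, wild-type included. Every heart was digested with Collagenase II in a gentleMACS device and treated with red blood cell lysis buffer before 10x 3′ capture. The number of embryos in a library and their litters were not given in the sources used here. The p-values below therefore measure the spread between these libraries, which may be technical for the Wt pair. Ho replicate 1 was female and Ho replicate 2 male by Xist and Y-linked genes, so the Ho pair came from different embryos. The spread of the Ho pair thus includes differences between embryos of opposite sex, and the part of sex in it was not tested.

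Immediate early genes are transcribed within minutes of a signal, without new protein synthesis, through factors such as SRF and CREB that MAP kinases activate. Fos, Fosb, Jun and Junb encode subunits of the AP-1 transcription factor, Egr1 a zinc finger factor, Atf3 a stress-induced factor of the ATF family, Ier2 a nuclear protein and Dusp1 a phosphatase that switches MAP kinases off. Hspa1a and Hspa1b encode inducible HSP70 chaperones under the control of HSF1. These genes are known to be induced while tissues are taken apart with warm enzymes as well as by signals inside an intact organ. All 4 libraries were digested, so levels set by digestion and levels present in the intact heart cannot be told apart here. The methods describe a single protocol without a digestion time or temperature. Whether the 4 libraries were handled equally was not given.

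Of the 10 members, 8 matched a promoter in the RefSeq sequences of GRCm38.p6. The 250 bases before the start site are shown for 4 of them, because Fos was called lower than in Tnnt2 cells in all 5 other gates, Dusp1 holds the most matches to the cAMP response motif, and Hspa1a and Hspa1b are near-identical copies. They are written 5′ to 3′ on the strand of the gene, and capitals mark matches to the cAMP response core TGACGT, the TATA box motif TATAAA or the heat shock core GAANNTTC on either strand.
Fos: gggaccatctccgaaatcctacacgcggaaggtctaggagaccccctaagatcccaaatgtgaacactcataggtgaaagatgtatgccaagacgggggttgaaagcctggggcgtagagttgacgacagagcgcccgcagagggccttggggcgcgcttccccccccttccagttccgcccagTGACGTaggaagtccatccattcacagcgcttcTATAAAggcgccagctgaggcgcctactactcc
Dusp1: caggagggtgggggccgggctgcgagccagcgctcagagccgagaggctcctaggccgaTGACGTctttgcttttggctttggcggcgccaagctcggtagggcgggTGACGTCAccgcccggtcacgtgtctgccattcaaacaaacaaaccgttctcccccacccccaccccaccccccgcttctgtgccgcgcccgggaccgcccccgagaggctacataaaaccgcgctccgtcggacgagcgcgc
Hspa1a: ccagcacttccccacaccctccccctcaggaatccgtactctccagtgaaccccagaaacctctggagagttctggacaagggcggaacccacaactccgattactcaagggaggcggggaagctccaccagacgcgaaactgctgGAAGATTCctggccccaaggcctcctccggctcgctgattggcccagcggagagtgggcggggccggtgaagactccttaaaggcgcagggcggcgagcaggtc
Hspa1b: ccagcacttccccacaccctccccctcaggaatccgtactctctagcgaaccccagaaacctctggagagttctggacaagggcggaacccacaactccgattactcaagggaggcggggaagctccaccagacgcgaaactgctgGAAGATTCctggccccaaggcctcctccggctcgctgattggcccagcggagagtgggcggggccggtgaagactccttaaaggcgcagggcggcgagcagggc
The Fos window lies on the plus strand of chr12:85473640-85473889, and the minus-strand windows of Dusp1, Hspa1a and Hspa1b lie at chr17:26508473-26508722, chr17:34972157-34972406 and chr17:34959239-34959488. Fos held TGACGT, the core of the cAMP response element, 66 bases before the start and a TATA box 33 bases before it. Dusp1 held TGACGT 3 times, of which a pair, 143 and 141 bases before the start, overlap as the 2 strands of a palindrome. Hspa1a and Hspa1b each held GAANNTTC, the core of a heat shock element, 104 bases before the start, and their windows were the same at 247 of 250 positions. Among 32851 promoter windows of the same length, TGACGT was in 6.47%, TATAAA in 12.4% and GAANNTTC in 6.69%. The CArG box bound by SRF was in 1.47% of them and in none of the 8 windows of members. Bases more than 250 before the start were not searched, so a site further upstream would be missed. Egr1 and Ier2 had no window and were not searched. These matches describe the letters and were not tested as binding sites.

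On GRCm38, the annotation places Fos (ENSMUSG00000021250) on chromosome 12 from 85473890 to 85477273. Hspa1b (ENSMUSG00000090877) spans 34956436 to 34959238 and Hspa1a (ENSMUSG00000091971) 34969190 to 34972156 on chromosome 17, both on the minus strand, with 9951 bases between them. Of the 90-base windows in the Hspa1a transcript, 49.3% also occur in the Hspa1b transcript, against 0% in the last 500 bases, where 3′ reads fall. Reads that reach further into either gene can match both copies, so the values of Hspa1a and Hspa1b are uncertain as separate genes.

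After filters on mitochondrial share, depth and doublets, 29168 cells remained, and 23461 of them fell in a gate. A gate is a cutoff on the UMIs of 1 gene, namely Tnnt2 (cardiac troponin T, 9459 cells), Cdh5 (VE-cadherin of endothelial cells, 5079 cells), Hapln1 (a matrix link protein of cushion mesenchyme, 3722 cells), Crabp1 (3597 cells), Upk3b (epicardium, 697 cells) and Epcam (epithelium, 907 cells). The UMIs of the cells used came to 97004419 and 105384571 in Wt replicates 1 and 2 and to 113596628 and 98459742 in Ho replicates 1 and 2. Tnnt2 cells held 20430932, 42012575, 58199020 and 42004971 UMIs in the same order of libraries, which is kept for every series of values below. Cells of the Tnnt2 gate carried 30982 to 33255 CPM (UMIs of a gene scaled to all UMIs of the summed cells) of the 5 cardiomyocyte markers Myl7, Myh6, Myh7, Actn2 and Ttn, with Myl7 the most abundant. The same markers came to 136 to 496 CPM in the Cdh5 gate and to 2202 to 4098 CPM in the Upk3b gate. The Crabp1 gate was not set apart by its own check markers, which summed to 218 to 432 CPM there and to 604 to 712 CPM in the Hapln1 gate, and it is called by its gate gene only.

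Several libraries stood apart before any member was measured. Ho replicate 1 held 28888 Xist UMIs and 0 UMIs of Y-linked genes, whereas Wt replicate 1, Wt replicate 2 and Ho replicate 2 held 5, 4 and 2 Xist UMIs, so 1 Ho library was female and the other 3 were male. The Crabp1 gate took 2439, 574, 67 and 517 cells and the Epcam gate 459, 185, 0 and 263. The 67 Crabp1 cells of Ho replicate 1 carried 949 CPM of the Hapln1 check markers, against 327 to 498 CPM in the other libraries. Ho replicate 2 had the highest median mitochondrial share in Tnnt2 cells, at 2.12% against 1.39, 1.46 and 1.57%. The 5 erythroid markers Hbb-y, Hba-x, Hbb-bh1, Hba-a1 and Alas2 summed to 3.28, 8.12, 218 and 6.57 CPM in Tnnt2 cells, with Hba-x the most abundant in Ho replicate 1, and the 5 macrophage markers Fcer1g, Tyrobp, C1qa, Ctss and Cx3cr1 to 1.96, 4.05, 0.533 and 0.143 CPM. Among the erythroid markers Alas2 was at 0 in Wt replicate 1, and among the macrophage markers only Fcer1g was above 0 in Ho replicate 2. The part of these cells in the member values was not tested. Barcodes shared by a pair of libraries numbered 12 to 32.

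Fos was highest in Tnnt2 cells. Its level there was 248, 242, 236 and 334 CPM, with a mean of 265 ± 46.4 (SD, n = 4 libraries). Every Tnnt2 value lay above every value of the other 5 gates, whose highest was 165.0 CPM in the Upk3b cells of Ho replicate 2. Cdh5 cells held 69.1, 68.4, 77.6 and 72.4 CPM of Fos and Hapln1 cells 68.5, 70.6, 81.9 and 87.8 CPM. The 4 libraries lay close together in both of these gates. In Crabp1 cells, Fos was at 27.8, 88.9, 61.8 and 66.2 CPM, and in Upk3b cells it was at 52.5, 121, 96.9 and 165 CPM. Wt replicate 1 was the lowest library in both, by a wide margin. The Epcam cells of Wt replicate 1, Wt replicate 2 and Ho replicate 2 held 28.8, 94.7 and 14.5 CPM. By mean level, the order ran Tnnt2, Upk3b, Hapln1, Cdh5, Crabp1, Epcam, and each neighbouring pair after Tnnt2 overlapped in range.

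Fosb and Egr1 had the same leading gate. Fosb, a partner of Jun like Fos, was at 63.1, 52.6, 69.0 and 71.6 CPM in Tnnt2 cells, and no value in another gate passed 23.6 CPM. In Cdh5 cells it was at 11.1, 14.6, 21.9 and 8.28 CPM and in Hapln1 cells at 4.31, 5.94, 9.88 and 5.40 CPM. Egr1 was at 75.9, 57.6, 65.1 and 74.2 CPM in Tnnt2 cells and at 21.6, 40.1, 47.0 and 49.1 CPM in Upk3b cells, and these ranges did not overlap. The other 4 gates held 5.58 to 20.3 CPM of Egr1, below every Upk3b value.

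**Figure D1:**
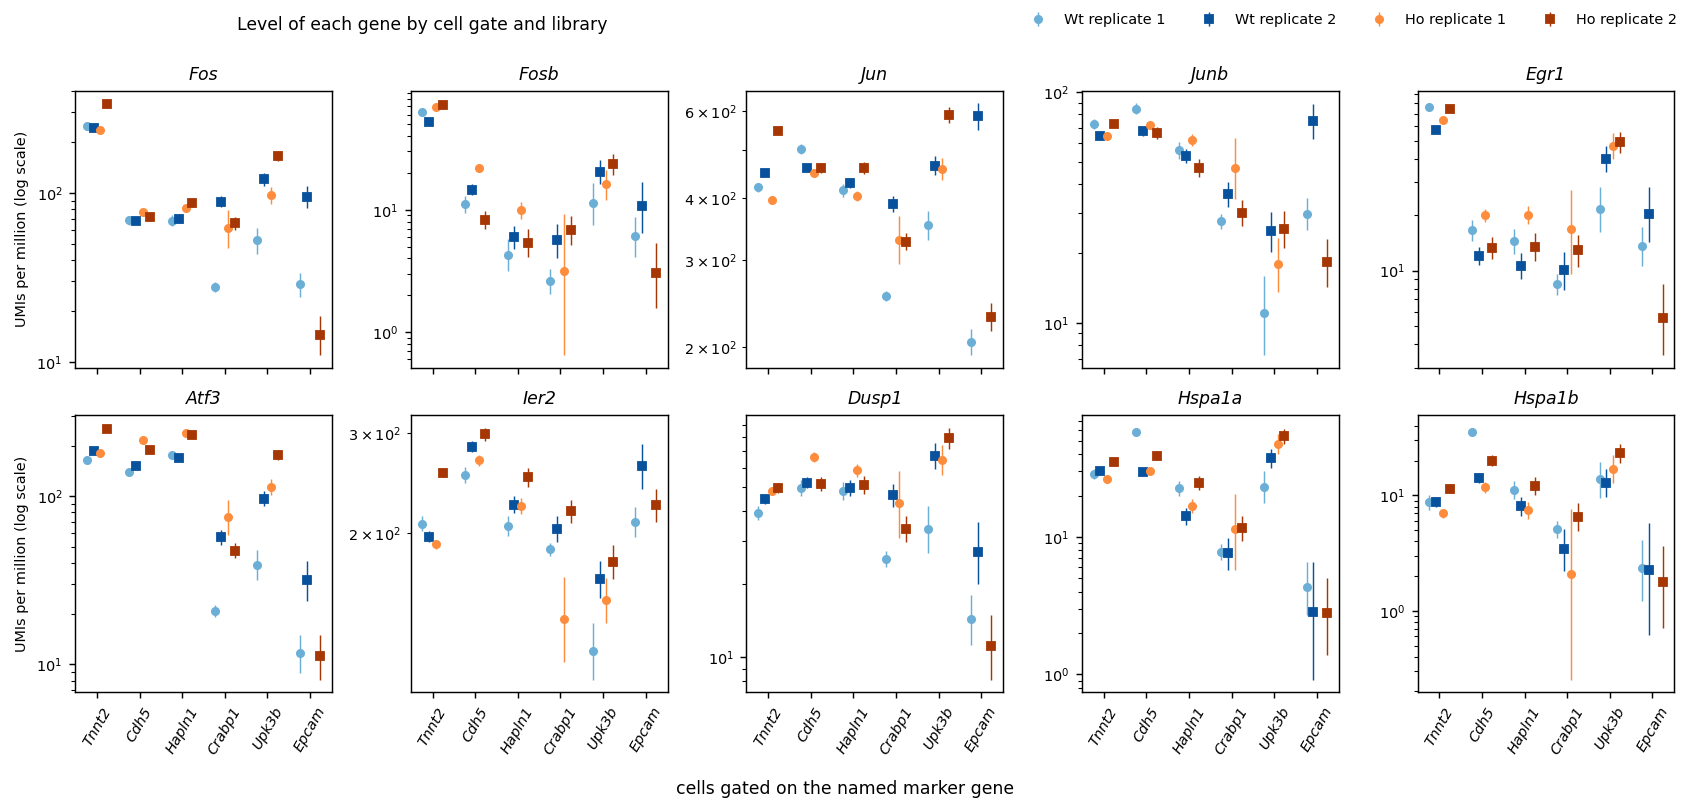
Level of each of the 10 members (CPM, log axis) in the 6 gates, with a point for each library and bars for the 95% Poisson interval of its count. Fos, Fosb and Egr1 sit highest in Tnnt2 cells in all 4 libraries, while Jun, Ier2 and Dusp1 overlap between neighbouring gates.

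Jun, the shared dimer partner of the AP-1 factors, was at 421, 450.4, 397 and 546 CPM in Tnnt2 cells and 502, 459.7, 449 and 459.9 CPM in Cdh5 cells. These ranges overlapped, as did those of every neighbouring pair of gates for Jun, Ier2 and Dusp1. Ier2 was at 208, 197, 191 and 255 CPM in Tnnt2 cells and 253, 284, 269 and 298 CPM in Cdh5 cells. Its Cdh5 value was above its Tnnt2 value in 4 of 4 libraries. Dusp1, the MAP kinase phosphatase, was at 39.1, 44.4, 48.1 and 49.5 CPM in Tnnt2 cells and at 33.8, 67.1, 64.7 and 79.1 CPM in Upk3b cells, with Wt replicate 1 lowest in both.

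Junb and Atf3 followed other orders. Junb was at 84.6, 67.5, 71.9 and 66.3 CPM in Cdh5 cells and 72.5, 64.6, 64.6 and 73.0 CPM in Tnnt2 cells, and was lowest in Upk3b cells at 10.98, 25.0, 18.0 and 25.5 CPM. The Upk3b values lay below those of every other gate but Epcam, where Ho replicate 2 held 18.3 CPM. Atf3, a factor of the stress response, was at 175, 168, 239 and 230.3 CPM in Hapln1 cells, 163, 185, 179.9 and 251 CPM in Tnnt2 cells and 139.9, 151, 215 and 189 CPM in Cdh5 cells. Those ranges overlapped, and the Crabp1 cells lay below all of them at 20.8, 56.8, 75.4 and 47.5 CPM.

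Of the heat shock pair, Hspa1a was at 58.6, 29.8, 30.3 and 39.2 CPM in Cdh5 cells, 23.2, 37.4, 47.7 and 54.0 CPM in Upk3b cells and 28.7, 30.4, 26.2 and 35.4 CPM in Tnnt2 cells. Wt replicate 1 was the highest library in Cdh5 cells and the lowest in Upk3b cells. Hspa1b was at 35.6, 14.3, 11.8 and 20.03 CPM in Cdh5 cells and 8.76, 8.74, 6.98 and 11.5 CPM in Tnnt2 cells, ranges that did not overlap. Crabp1 and Epcam cells had the least of both genes, at 2.79 to 11.6 CPM of Hspa1a and 1.78 to 6.56 CPM of Hspa1b.

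The gates were then compared within libraries, with edgeR's quasi-likelihood test, the library as a block and p-values adjusted by Benjamini-Hochberg across the whole set of tested genes. Log2 fold changes are given as the gate over Tnnt2 cells, ± SE. For edgeR, here and below, the SE was derived as the absolute log2 fold change divided by the square root of the F statistic. Against Tnnt2 cells, 4 members were lower and 2 higher in Cdh5 cells. Since 40.5% of all genes tested were called lower and 39.6% higher between these cell types, that count stood near the background. In Hapln1 cells 8 members were lower and 0 higher (background 39.3% lower and 37.8% higher), and in Crabp1 cells all 10 were lower (28.1% lower, 25.4% higher). In Upk3b cells 6 were lower and 2 higher (34% lower, 32.3% higher), and in Epcam cells, tested in 3 libraries, 9 were lower and 0 higher (24.3% lower, 21.5% higher). The median of the 10 members was -0.12 in Cdh5, -0.48 in Hapln1, -1.66 in Crabp1, -0.76 in Upk3b and -2.74 in Epcam cells, where the median of all genes lay between -0.03 and -0.01.

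Fos was lower in each of the 5 gates, with a log2 fold change of -2.04 ± 0.07 (adjusted p = 5.1e-10) in Cdh5 cells and -2.04 ± 0.05 (adjusted p = 2.2e-11) in Hapln1 cells. It was at -1.45 ± 0.12 (adjusted p = 8.9e-09) in Upk3b cells, -2.50 ± 0.23 (adjusted p = 7.7e-05) in Crabp1 cells and -3.32 ± 0.45 (adjusted p = 6.5e-04) in Epcam cells. In every library that held the gate, the Fos level was below that of Tnnt2 cells. Fosb was lower at -2.35 ± 0.17 (adjusted p = 2.2e-07) in Cdh5 and -3.55 ± 0.12 (adjusted p = 2.1e-10) in Hapln1 cells. Egr1 was at -2.31 ± 0.10 (adjusted p = 2.6e-09) in Cdh5 and -2.47 ± 0.11 (adjusted p = 1.4e-09) in Hapln1 cells. Both were also called lower in the Crabp1, Upk3b and Epcam gates, where Egr1 had its smallest difference in Upk3b cells at -0.90 ± 0.13 (adjusted p = 9.0e-06).

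**Figure D2:**
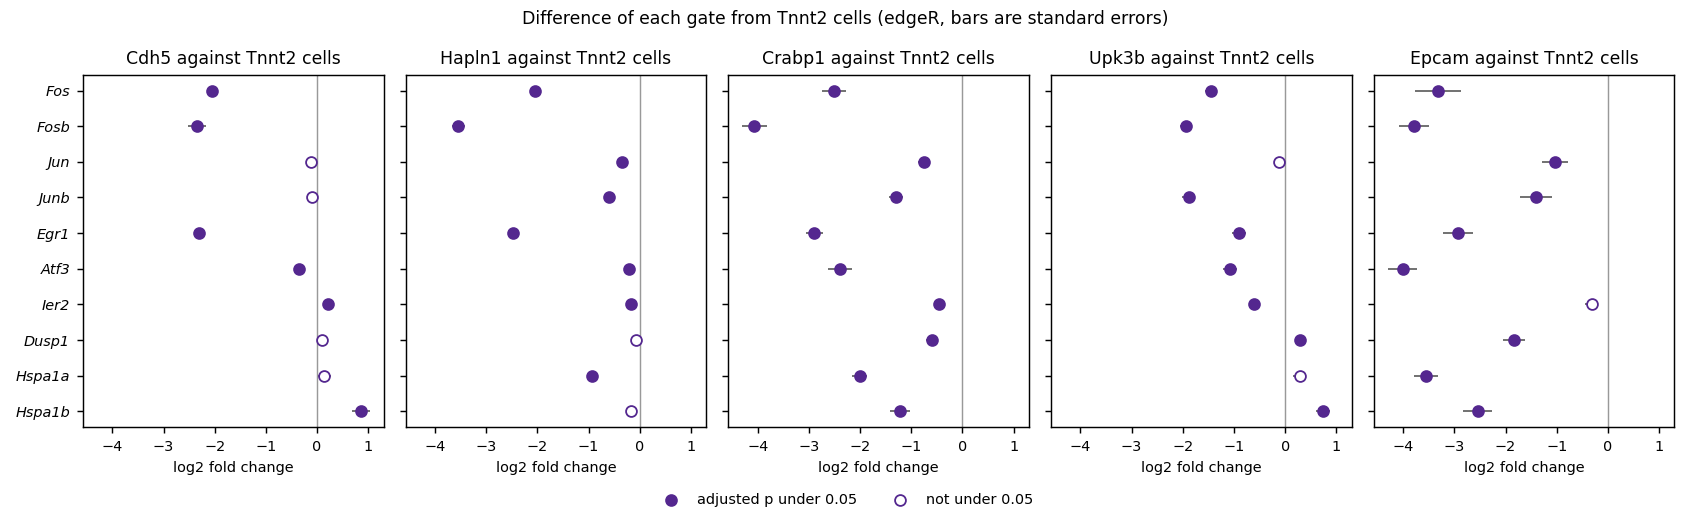
Log2 fold change of each member in 5 gates against Tnnt2 cells, with SE as bars and filled points for an adjusted p under 0.05 (edgeR). Fos, Fosb, Egr1 and Atf3 lie left of 0 in every panel, and Hspa1b lies right of 0 in Cdh5 and Upk3b cells.

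Atf3 was called lower in all 5 gates as well, at -0.35 ± 0.09 (adjusted p = 0.0033) in Cdh5 cells, -0.21 ± 0.07 (adjusted p = 0.021) in Hapln1 cells and -1.07 ± 0.14 (adjusted p = 2.4e-06) in Upk3b cells, with its largest difference in Epcam cells at -4.01 ± 0.28 (adjusted p = 2.0e-05). The other 6 members passed in fewer gates or in both directions. Ier2 was higher in Cdh5 cells at 0.20 ± 0.05 (adjusted p = 0.0022) and Hspa1b at 0.86 ± 0.17 (adjusted p = 7.9e-04). In Upk3b cells Hspa1b was higher at 0.74 ± 0.14 (adjusted p = 1.2e-04) and Dusp1 at 0.29 ± 0.10 (adjusted p = 0.018). Junb, in contrast, was lower in Upk3b cells at -1.88 ± 0.12 (adjusted p = 4.1e-10). Hspa1a was lower in Hapln1 cells at -0.93 ± 0.10 (adjusted p = 6.4e-06) and in Crabp1 cells at -2.01 ± 0.14 (adjusted p = 2.1e-05). Jun, Junb, Dusp1 and Hspa1a did not pass the test in Cdh5 cells, nor did Dusp1 and Hspa1b in Hapln1, Jun and Hspa1a in Upk3b and Ier2 in Epcam cells.

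Small differences depended on the scaling. The fits used TMM factors, whereas CPM use the summed UMIs alone. With library sizes alone, an alternative chosen after seeing the data, the median of all genes moved to 0.17, 0.27, 0.25, 0.13 and 0.36 in Cdh5, Hapln1, Crabp1, Upk3b and Epcam cells. Genes called higher and lower then numbered 6938 and 4665 in Cdh5 cells, against 5657 and 5787 with TMM, and 7331 and 3758 in Hapln1 cells, against 5175 and 5380. The split moved likewise in Crabp1 (5358 and 2815, against 3527 and 3891), Upk3b (5192 and 3409, against 4152 and 4366) and Epcam cells (4946 and 1922, against 2874 and 3248). Fos, Fosb and Egr1 were called lower in all 5 gates on both scales. Atf3 and Ier2 in Hapln1 cells changed from lower with TMM to 0.06 and 0.10 with library sizes alone, without passing the test, and Jun in Hapln1 and Atf3 in Cdh5 cells were no longer called. Dusp1 in Hapln1 cells, not called with TMM, passed the test as higher at 0.194 with library sizes alone. Single libraries also decided small differences. Without Wt replicate 2 or Ho replicate 2, Atf3 in Hapln1 cells (-0.13 and -0.17) and Dusp1 in Upk3b cells (0.23 and 0.17) lost their calls, and so did Jun in Epcam cells without Wt replicate 1 (-0.88). All 10 calls in Crabp1 cells held without any 1 library, Ho replicate 1 with its 67 cells included.

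As a reference for free cardiomyocyte RNA in the other gates, the member levels were set beside those of Ttn, which encodes the sarcomere protein titin. In Cdh5, Hapln1 and Crabp1 cells, the Fos level was 11.2 to 36.7% of that in the Tnnt2 cells of the same library, and in the 3 libraries with Epcam cells it was 11.6%, 39.1% and 4.33% there. Fosb was at 4.13 to 31.8% of its Tnnt2 level in these 4 gates. The Ttn level was 0.212 to 3.73% of that in Tnnt2 cells across the other gates, with the highest value in the Crabp1 cells of Ho replicate 1, where Fosb was at 4.55%. In Upk3b cells Fos was at 21.1 to 49.9% and Myl7 at 9.2 to 16.5% of the Tnnt2 level, and the part that cardiomyocyte RNA has in the Upk3b values was not tested.

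The share of cells with at least 1 UMI was compared after each cell was thinned to 2000 UMIs, which left out shallower cells. In Tnnt2 cells Fos was found in 28.8% (26.4 to 31.3%) and 31.8% (29.9 to 33.8%) of cells in Wt replicates 1 and 2. It was found in 34.0% (32.4 to 35.7%) and 41.7% (39.7 to 43.8%) in Ho replicates 1 and 2 (exact 95% intervals, which like the others cover counting error only). Thinning left out 172, 174, 130 and 84 Tnnt2 cells. Without thinning, at median depths of 13105.5, 18013, 17914 and 18494 UMIs, the shares were 55.8%, 69.7%, 79.5% and 82.2%. Ho replicate 2 was highest by share and by CPM, but the other 3 libraries were ordered oppositely by share and by CPM, so no order is read from them. As references for free RNA in Tnnt2 cells thinned alike, Egfl7 was found in 5.61 to 7.53%, Krt18 in 8.19 to 10.9% and Upk1b in 0.226 to 0.776% of cells. Whether Tnnt2 cells transcribe these genes themselves was not tested. Cdh5 cells held Fos in 10.8%, 12.6%, 14.0% and 13.7% of cells and Hapln1 cells in 12.9%, 11.2%, 15.7% and 15.0%. Ttn, which these cells should lack, was found in 1.83%, 3.66%, 5.29% and 2.85% of Cdh5 cells and in 1.09%, 3.31%, 6.05% and 2.88% of Hapln1 cells thinned alike. Every Fos share stood above the Ttn share of its library. Fosb was found in 1.73%, 2.75%, 4.49% and 1.64% of Cdh5 cells and 1.09%, 0.932%, 2.35% and 1.06% of Hapln1 cells, below the Ttn share of its library in all cases except the Hapln1 cells of Wt replicate 1, where the 2 shares were equal. Egr1 was found in 3.14%, 1.35%, 3.53% and 2.43% of Hapln1 cells, below the Ttn share in 3 of 4 libraries. In Cdh5 cells Egr1 was found in 3.56%, 1.90%, 4.24% and 3.07%. There it was above the Ttn share in Wt replicate 1 and Ho replicate 2 and below it in the others. The shares start from unequal levels, since Tnnt2 cells held 2921 to 3484 CPM of Ttn, 57.6 to 75.9 CPM of Egr1 and 52.6 to 71.6 CPM of Fosb. Relative to the Tnnt2 cells of the same library, the Egr1 level in Hapln1 cells was 18.9%, 18.5%, 30.7% and 18.1% and the Ttn level 0.256%, 0.579%, 1.95% and 0.443%.

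**Figure D3:**
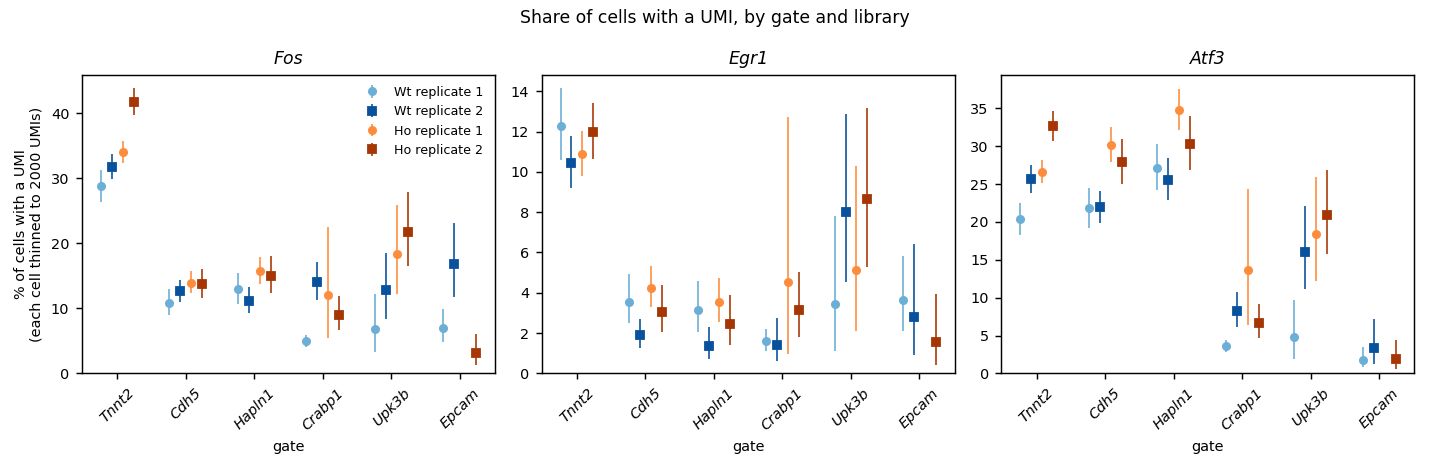
Share of cells with at least 1 UMI of Fos, Egr1 and Atf3 (%, each cell thinned to 2000 UMIs) by gate, with a point for each library and bars for the exact 95% interval. Fos shares of 28.8 to 41.7% in Tnnt2 cells lie above those of the other gates, and Atf3 shares of Tnnt2, Cdh5 and Hapln1 cells overlap.

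Within the Tnnt2 gate, Fos was uneven between cells. The variance of its thinned counts was 1.61, 1.44, 1.41 and 1.46 times the mean, where counting error alone gives a ratio near 1. Cells with a Fos UMI also carried other members more often than cells without. Fosb was found 1.87 to 2.36 times as often in them over the 4 libraries, Egr1 1.77 to 2.20 times, Junb 1.71 to 2.42 times and Dusp1 1.61 to 2.52 times. For Jun the ratio was 1.32 to 1.88, for Atf3 1.56 to 2.07 and for Ier2 1.29 to 1.71. Hspa1a reached 1.15 to 2.00, whereas Hspa1b ran from 0.927 to 1.64 and so lay on both sides of 1. The other 8 members were found more often in 4 of 4 libraries, as were 17.2% of the 8888 genes found in 1 to 70% of these cells. The median ratio of those genes was 1.03 to 1.05 in the 4 libraries and their 90th percentile 1.35 to 1.60. These ratios describe cells of shared libraries at 1 depth and were given no test.

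The members also differed within Tnnt2 cells by Myl2, the regulatory myosin light chain of ventricular muscle. Tnnt2 cells with at least 5 Myl2 UMIs and 10 per 10000 numbered 658, 1226, 1823 and 968. Fos was at 185, 162, 209 and 251 CPM in them and at 294, 335, 276 and 407 CPM in the other Tnnt2 cells. All 8 immediate early genes were lower in the Myl2 cells of 4 of 4 libraries, as were 44% of all genes tested in Tnnt2 cells. The ratio of levels was 0.483 to 0.757 for Fos, 0.320 to 0.471 for Junb, 0.416 to 0.570 for Ier2 and 0.432 to 0.601 for Atf3. Hspa1a and Hspa1b did not share this, with ratios of 0.718 to 1.31 and 0.928 to 1.51, above 1 in 3 of 4 libraries each. In Cdh5 cells, those with at least 2 Hapln1 UMIs carried 1.18 to 2.26 times the Atf3 level of the others, and 0.368 to 0.861 times the Junb level, with 1 direction for each gene in 4 of 4 libraries. Among all genes 14% were higher and 13.4% lower in 4 of 4. Cdh5 cells that passed no other gate numbered only 173, 229, 117 and 102. Their median depths were 10095, 11277, 11799 and 11432.5 UMIs, against 13545, 15961, 16450 and 16667 in the whole gate. Cdh5 cells with and without Hapln1 were not matched for depth. These splits were chosen with values of these data known and are given as descriptions.

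**Figure D4:**
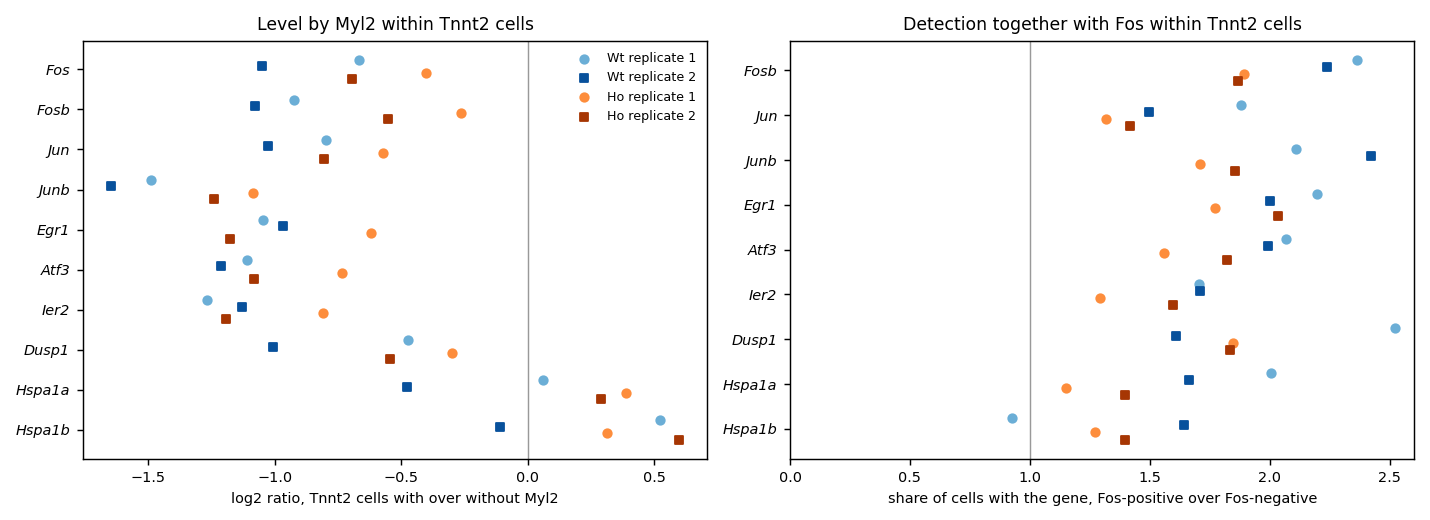
Left, log2 ratio of each member's level in Tnnt2 cells with over without Myl2, and right, ratio of the share of cells with each gene in Fos-positive over Fos-negative Tnnt2 cells, with a point for each library. The 8 immediate early genes lie below 0 on the left in all 4 libraries, and every point on the right lies above 1 except Hspa1b in Wt replicate 1.

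The Fos level differed with depth and mitochondrial share inside the Tnnt2 gate, without a steady rise. Cells of at most 5000 UMIs held 44.98, 103, 169 and 174 CPM of Fos, and cells of 10000 to 20000 UMIs held 279, 302, 294 and 408 CPM. From 20000 to 50000 UMIs the level was lower again in all 4 libraries, at 242, 224, 202 and 296 CPM. Cells with at most 1% mitochondrial UMIs held 173, 187, 197 and 189 CPM and those with 2 to 5% held 257, 262, 260.0 and 339 CPM. The 35, 51, 59 and 69 cells with 5 to 20% held 12.0, 139, 303 and 221 CPM, below the 2 to 5% cells in every library except Ho replicate 1. Ho replicate 2 was the highest library in each of the 4 depth ranges and from 1 to 2% and 2 to 5% mitochondrial share, whereas Ho replicate 1 was the highest at up to 1% and from 5 to 20%. The part of depth and cell quality in the gate differences was not tested beyond the thinned fits, in which Fos, Fosb and Egr1 stayed lower in all 5 gates.

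Libraries of 1 genotype were compared next, since their differences set the error of the genotype comparison. In Tnnt2 cells the median absolute log2 ratio of the 10 members was 0.132 for Wt replicate 2 over 1 and 0.425 for Ho replicate 2 over 1, where all genes tested had 0.133 and 0.179. Ho replicate 2 was above Ho replicate 1 for 10 of 10 members in Tnnt2 cells (68.6% of all genes) and for 10 of 10 in Upk3b cells (59.4%). In Cdh5, Hapln1 and Crabp1 cells it was above for 4, 5 and 5 members (58.3%, 54.8% and 51.7%). Fos was 1.42 times as high in the Tnnt2 cells of Ho replicate 2. The Wt libraries parted in other gates. In Upk3b cells their median absolute ratio was 0.861 (all genes 0.203), with 9 of 10 members higher in Wt replicate 2 (55.8% of all genes), and in Crabp1 cells 0.585 (0.292), with 8 of 10 higher (68.6%). In Tnnt2, Cdh5 and Hapln1 cells 4, 4 and 5 members were higher in Wt replicate 2 (52.9%, 59.8% and 60.1%). Fos was 3.20 times as high in Wt replicate 2 as in Wt replicate 1 in Crabp1 cells, 2.30 times in Upk3b cells and 3.29 times in Epcam cells. Hspa1b went the other way in Cdh5 cells, at 0.401 times. Between the mean Ho and the mean Wt level, the median absolute log2 ratio of the members was 0.112, 0.166, 0.179, 0.258 and 0.576 in Tnnt2, Cdh5, Hapln1, Crabp1 and Upk3b cells, where all genes tested had 0.113, 0.113, 0.109, 0.236 and 0.150.

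**Figure D5:**
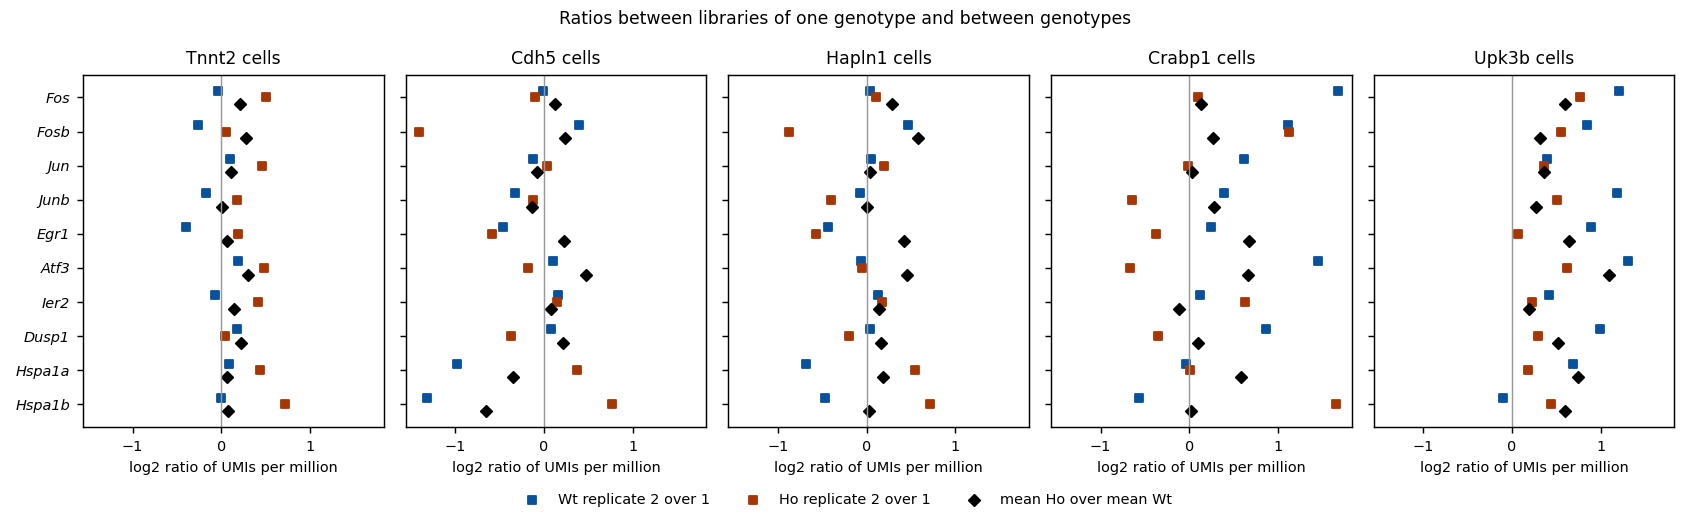
Log2 ratios of each member's level, for Wt replicate 2 over 1, Ho replicate 2 over 1 and mean Ho over mean Wt, in 5 gates. In Tnnt2 cells all 10 Ho replicate 2 over Ho replicate 1 ratios lie above 0, and in Upk3b and Crabp1 cells the Wt ratios are wide.

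Between genotypes, edgeR called 0 of 10 members in each of the 5 gates tested. Among all genes it called 0.00683% in Tnnt2, 0% in Cdh5, 0.0314% in Hapln1, 0% in Crabp1 and 0% in Upk3b cells. At an unadjusted p under 0.05 there were 3, 1, 4, 0 and 5 members, against 6.37%, 5.05%, 6.07%, 1.56% and 4.67% of all genes, and DESeq2 called 0, 1, 1, 0 and 0 members. All 13 of those member differences were toward higher Ho levels, and 3.55%, 3.11%, 3.38%, 0.907% and 2.22% of all genes were under 0.05 in that direction. In the Tnnt2 gate the lower Ho value exceeded the higher Wt value for 2 members (as for 17.9% of all genes), and for 2, 3, 2 and 4 members in Cdh5 (12.8%), Hapln1 (15.3%), Crabp1 (12.2%) and Upk3b cells (11.8%). The higher Ho value was below the lower Wt value for 0 members in each gate, against 16.5, 22.8, 19.8, 13.6 and 21.9% of all genes in the same order. The Epcam gate had no cells in Ho replicate 1, 0 of 6980, which allows a share of up to 0.0430%, and was not tested.

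In Tnnt2 cells Fos was 1.16 times as high in Ho as in Wt by mean CPM (adjusted p = 0.83). Ho replicate 1 was the lowest and Ho replicate 2 the highest of the 4 libraries, so the groups overlapped. Fosb and Dusp1 were the members without overlap there. Their log2 fold changes of Ho over Wt were 0.28 ± 0.10 (adjusted p = 0.74) and 0.21 ± 0.09 (adjusted p = 0.77), and that of Atf3, with overlap, was 0.29 ± 0.13 (adjusted p = 0.78). Jun, Junb, Egr1, Ier2, Hspa1a and Hspa1b had adjusted p-values of 0.88 or more.

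Atf3 was the member nearest to a genotype difference, and the log2 fold changes below are from edgeR. In Hapln1 cells both Ho values, 239 and 230.3 CPM, were above both Wt values, 175 and 168 CPM, with a log2 fold change of 0.47 ± 0.07 (adjusted p = 0.14). In Cdh5 cells the same held, at 215 and 189 against 139.9 and 151 CPM, with 0.51 ± 0.09 (adjusted p = 0.57). DESeq2 gave adjusted p = 0.0033 and 0.0074 for these 2 differences, so the call depends on the tool. In Upk3b cells Atf3 was at 1.09 ± 0.31 (adjusted p = 0.85), and the lowest Wt library, replicate 1, held 39.0 CPM against 96.5 CPM in replicate 2. With each library left out in turn, the log2 fold change of Atf3 stayed between 0.42 and 0.52 in Hapln1 cells and between 0.39 and 0.62 in Cdh5 cells, while the adjusted p moved. In Hapln1 cells it passed the test without Ho replicate 1 (adjusted p = 0.049), which is the female library, and without Ho replicate 2 (adjusted p = 4.4e-04), and in Cdh5 cells without Ho replicate 2 (adjusted p = 0.03). Each such fit has a single Ho library, which is assumed to vary like the Wt pair that alone gives the spread.

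Fos in Hapln1 cells was at 0.30 ± 0.08 (adjusted p = 0.54) and did not overlap between the genotypes. Fosb and Egr1 there were at 0.62 ± 0.28 (adjusted p = 0.82) and 0.47 ± 0.21 (adjusted p = 0.82), and in each Ho replicate 1 was the highest library while Ho replicate 2 overlapped the Wt range. Without Ho replicate 2 both passed the test, at 0.95 and 0.73, but that fit sets Ho replicate 1 alone against the Wt pair. In Upk3b cells Hspa1a was at 0.76 ± 0.20 (adjusted p = 0.78), Hspa1b at 0.66 ± 0.22 (adjusted p = 0.94), Egr1 at 0.64 ± 0.23 (adjusted p = 0.98) and Jun at 0.39 ± 0.15 (adjusted p = 0.98). The values of Wt replicate 1 were lowest for 3 of these 4 genes, with 148 Upk3b cells behind them. The difference of the genotype effect between the Cdh5, Hapln1 or Crabp1 gate and the Tnnt2 gate was tested as an interaction. It was called for 0 of 10 members in each, with 0 at an unadjusted p under 0.05, where 4.18%, 3.48% and 1.97% of all genes were under it. DESeq2 also called 0 members. Fits with a single Ho library, in which the Wt pair alone gives the spread, called some members and describe that library. Without Ho replicate 1 the interaction of Fosb in Cdh5 cells was called at -0.93 and without Ho replicate 2 at 0.45, in the opposite direction. Without Ho replicate 2, Egr1 and Atf3 were called as well, at 0.52 and 0.50 in Cdh5 cells and 0.67 and 0.40 in Hapln1 cells, and without Ho replicate 1 Jun in Cdh5 cells at -0.32.

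By share of thinned cells, the mean of the Ho libraries was above that of the Wt libraries by 7.59 percentage points for Fos in Tnnt2 cells. The difference was 2.11 points in Cdh5, 3.31 in Hapln1, 1.08 in Crabp1 and 10.3 in Upk3b cells. These sizes depended on thinning and gates. With exclusive gates the difference was 1.05 points in Cdh5 and 6.46 in Upk3b cells, where the groups then overlapped. At 5000 UMIs a cell the difference was 16.2 points in Upk3b cells. Without thinning it was 18.1 points in Tnnt2, 9.55 in Cdh5, 8.30 in Hapln1, 10.2 in Crabp1 and 15.9 in Upk3b cells. The Crabp1 groups overlapped without thinning as well, at 19.5% and 47.9% in Wt and 43.3% and 44.5% in Ho. An exact two-sided permutation test of 2 against 2 libraries cannot go below p = 0.33, so it could not pass 0.05 for any values, and these differences are given as a description.

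The members belong to wider responses, which were followed in 4 lists. Of 42 other immediate early genes, 20 were higher and 17 lower in Cdh5 than in Tnnt2 cells and 18 and 18 in Hapln1 cells, with medians of -0.05 and -0.03 beside -0.01 for all genes. The shares of all genes called higher and lower were 39.6% and 40.5% in Cdh5 and 37.8% and 39.3% in Hapln1 cells. These counts and shares used TMM factors. With library sizes alone, more genes of the whole set were called higher and fewer lower in both gates. In Crabp1 cells 7 were higher and 24 lower (25.4% and 28.1% of all genes) and in Epcam cells 6 and 27 (21.5% and 24.3%), of 41 tested in each. With library sizes alone these counts were 9 higher and 18 lower (38.6% and 20.3% of all genes) in Crabp1 and 6 higher and 21 lower (37% and 14.4% of all genes) in Epcam cells. Klf6, a zinc finger factor, was higher in Cdh5 cells at 1.34 ± 0.06 (adjusted p = 3.2e-09) and in Hapln1 cells at 1.58 ± 0.05 (adjusted p = 7.2e-11). Gadd45g, a growth arrest gene, was lower in the same gates at -1.06 ± 0.09 (adjusted p = 8.2e-07) and -1.40 ± 0.05 (adjusted p = 3.6e-10). Jund, the third Jun protein, was lower in Cdh5 cells at -0.86 ± 0.04 (adjusted p = 1.6e-09), and Mcl1, an inhibitor of apoptosis, was higher at 0.61 ± 0.04 (adjusted p = 2.4e-07). The wider list thus held genes of both directions in the gates where Fos, Fosb and Egr1 were all lower.

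Of 25 other heat shock and chaperone genes, 6 were higher and 14 lower in Cdh5 cells, 6 and 14 in Hapln1, 3 and 13 in Crabp1, 11 and 10 in Upk3b and 2 and 15 in Epcam cells, all 25 being tested. The shares of all genes given above for the other 4 gates, and 32.3% higher and 34% lower in Upk3b cells, are the background. With library sizes alone the counts were 10 higher and 12 lower (48.6% and 32.7% of all genes) in Cdh5, 11 higher and 11 lower (53.5% and 27.4% of all genes) in Hapln1, 8 higher and 9 lower (38.6% and 20.3% of all genes) in Crabp1, 14 higher and 10 lower (40.4% and 26.5% of all genes) in Upk3b and 6 higher and 11 lower (37% and 14.4% of all genes) in Epcam cells. Hsp90ab1, a constitutive HSP90, was the most abundant by CPM and was higher in Cdh5 cells at 0.32 ± 0.04 (adjusted p = 1.2e-05). Hspe1, the mitochondrial co-chaperonin, was lower there at -0.78 ± 0.05 (adjusted p = 3.8e-08). In the integrated stress response list, 5 genes were higher and 5 lower of 11 tested in Cdh5 and of 10 tested in Hapln1 cells. In Crabp1, Upk3b and Epcam cells 2, 3 and 2 were higher and 3, 4 and 2 lower, of 9, 9 and 8 tested. With library sizes alone 5, 5, 3, 4 and 2 were higher and 3, 3, 3, 4 and 2 lower in the 5 gates. Asns, which encodes asparagine synthetase, was higher in Cdh5 cells at 2.02 ± 0.07 (adjusted p = 2.5e-10) and Ddit3, a stress-induced factor, lower at -2.02 ± 0.10 (adjusted p = 1.2e-08). Among 13 upstream regulators, Mapk3, the kinase ERK1, was higher in Cdh5 cells at 2.38 ± 0.05 (adjusted p = 8.1e-12) and Hsf2, a relative of HSF1, lower at -1.0 ± 0.06 (adjusted p = 8.8e-08). Between genotypes edgeR called 0 genes of the 4 lists in each of the 5 gates, with 7 of 42, 12 of 39, 10 of 38, 0 of 36 and 9 of 36 tested other immediate early genes at an unadjusted p under 0.05 in Tnnt2, Cdh5, Hapln1, Crabp1 and Upk3b cells. Among all genes 6.37%, 5.05%, 6.07%, 1.56% and 4.67% were under it. Of the immediate early genes, 7, 12, 9, 0 and 9 were higher in Ho. The other heat shock genes numbered 3, 6, 7, 0 and 0, of which 1, 1 and 2 were higher in Ho in Tnnt2, Cdh5 and Hapln1 cells, the integrated stress genes 1, 2, 2, 0 and 2, and the upstream regulators 0, 0, 1, 0 and 0.

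Over the 23 sums of a gate in a library, the genes most like Fos by Pearson's r of log2(CPM + 1) were Mdp1 (0.917), Zfp36 (0.916), Ptp4a2 (0.904), Irf2bpl (0.903) and Mpi (0.900), out of 9771 genes with a mean of at least 5 CPM. Among the members, Egr1 (0.877) and Fosb (0.861) were nearest to Fos and Ier2 (0.0233) farthest. The genes most like Hspa1a were Mrps16 (0.907), Tmco1 (0.905), Tfpi (0.901), Rgl1 (0.897) and Fkbp1a (0.897), while its copy Hspa1b had 0.920. Sums of 1 library share its preparation and sums of 1 gate share a cell type, so these values describe the pattern across gates.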

How the data were processed

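Single-cell libraries of E10.5 mouse hearts (2 Wt, 2 Ho) were prepared with 10x 3′ chemistry and counted with Cell Ranger 6.1.1 on mm10 (GRCm38), with Seurat 4.1.0 also named in the submitters' processing notes. The authors deposited raw UMI counts per gene and barcode for each library, without normalization, and genotype and replicate came from the labels. As in the methods of the study, barcodes over 20% mitochondrial UMIs, outside 500 to 50000 UMIs or outside 500 to 6000 genes were left out. Scrublet (scanpy 1.11.5) took the place of DoubletFinder, and the cells with the highest scores, 0.8% per 1000 cells of the library, were removed (746, 464, 440 and 334 cells in Wt replicates 1 and 2 and Ho replicates 1 and 2). Barcodes in the files numbered 10320, 8212, 7999 and 7058.

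Gates asked for at least 5 UMIs and 10 per 10000 of Tnnt2, or 2 UMIs and 1 per 10000 of the other gate genes. A cell that passed several went to the first of Tnnt2, Epcam, Cdh5, Upk3b, Hapln1 and Crabp1, and 82.5 to 92.8% of Cdh5 and 51.4 to 57.4% of Upk3b cells also passed another gate. UMIs were summed per library and gate with at least 50 cells, and cells were not treated as replicates. edgeR 4.0.16 (R 4.3.3) compared the sums with TMM factors, filterByExpr, the quasi-likelihood test and a threshold of 0.05 on Benjamini-Hochberg adjusted p-values of the tested genes, with the library as a block between gates. DESeq2 1.42.0 was an alternative. The fits were also run on simulated counts of a fixed dispersion, with changes larger than most genotype differences of the members. That run could not show whether smaller differences would be found. CPM are UMIs scaled to all UMIs of the summed cells, with exact Poisson intervals. The per-cell test of the study was not used.

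Intervals of shares are exact (Clopper-Pearson) at 95%, but the upper limit printed for the empty Epcam gate used 3 counts. Counts of 0 in CPM kept their exact Poisson limits. Of the gene IDs, 99.8% were in GENCODE M21, which gave positions. Promoters came from RefSeq (GRCm38.p6). The members, lists, gates and tests were chosen with earlier results of these data known. Named genes were the members, the 5 genes most like Fos and Hspa1a, and some genes of each list. Those of the lists came from the 4 most abundant where none or over 10 passed a test, and otherwise from those that passed. Alternatives covered doublets, gate cutoffs, cell filters, thinning, normalization, count filters, the test, blocks and each library left out.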

Additional observations from a re-analysis of the deposited data

How the results depend on the processing

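Among differences between gates, Fos, Fosb and Egr1 were called lower in all 5 gates under every alternative that gave a value, and RLE size factors called the same members as TMM in every gate. Directions turned for members with small differences from Tnnt2 cells. With exclusive gates, Jun and Junb in Cdh5 cells went to 0.0204 and 0.55 and Hspa1a in Upk3b cells to -0.00225, with stricter gates Hspa1b in Hapln1 cells to 0.0164, and with cells thinned to 2000 UMIs Dusp1 in Hapln1 cells to 0.0277. With library sizes alone, chosen after seeing the data, Jun and Junb in Cdh5 cells went to 0.0534 and 0.0751, Atf3, Ier2, Dusp1 and Hspa1b in Hapln1 cells to 0.0642, 0.0961, 0.194 and 0.0940, Jun in Upk3b cells to 0.0351 and Ier2 in Epcam cells to 0.0752. Hspa1a in Cdh5 cells ranged from -0.0576 to 0.27 over the libraries left out in turn, the lowest without Wt replicate 1. Of these, Junb with exclusive gates and Dusp1 with library sizes alone passed the test in the new direction.

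Between genotypes, where 0 members were called, 1 was called in Upk3b cells with exclusive gates, 1 in Cdh5 cells with thinned cells, 1 each in Cdh5 and Hapln1 cells with DESeq2, and 2, 1 and 3 in Cdh5, Hapln1 and Upk3b cells with no filter on low counts. Leaving out each library in turn gave 0 to 1 in Cdh5 and 0 to 3 in Hapln1 cells, and 0 to 3 and 0 to 2 for the interactions of the Cdh5 and Hapln1 gates. Atf3 was among the members called in each of these except the Cdh5 interaction without Ho replicate 1, which called Fosb and Jun. Genes called numbered 1, 0, 4, 0 and 0 in Tnnt2, Cdh5, Hapln1, Crabp1 and Upk3b cells, against 219, 249, 203, 172 and 123 with no filter, 22, 23, 18, 2 and 7 with DESeq2, and 18, 4, 60, 0 and 0 with a replicate block. The cause was not tested.

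The replicate numbers share a number only, since the deviations of same-numbered libraries correlated at -0.11, -0.10, -0.02, -0.24 and -0.04 in these gates. The replicate block called 1 member, Atf3, in Hapln1 cells and 0 in the others. A crossed pairing, chosen after seeing the data, called 53, 10, 13, 81 and 23 genes and 0 members. The stricter Crabp1 gate left fewer than 50 cells in Ho replicate 1 and was not run, the Epcam gate gave no genotype test, and DESeq2 gave no adjusted p for Fosb, Egr1, Hspa1a and Hspa1b in Hapln1 cells. The smallest sum tested, the 67 Crabp1 cells of Ho replicate 1, held 955422 UMIs.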

Other observations

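Cells in no gate with at least 2 UMIs of Fcer1g, a marker of macrophages, numbered 19, 39, 61 and 11 in Wt replicates 1 and 2 and Ho replicates 1 and 2. The heat shock member Hspa1a was at 154, 217, 129 and 292 CPM and Hspa1b at 70.7, 99.8, 48.8 and 233 CPM in them, above every value of the 6 gates for both genes. Fos was at 64.3, 185, 109 and 32.8 CPM and Jun at 649, 676, 693 and 967 CPM. These cells were chosen after values were seen, were too few for a test, and Hspa1a and Hspa1b are uncertain as separate genes.

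Barcodes over 20% mitochondrial UMIs, which were left out above, numbered 60, 74, 166 and 285, with median depths of 630.5, 716.5, 708 and 842 UMIs. They held 2, 0, 1 and 13 Fos UMIs, with exact 95% Poisson intervals of 5.78 to 172, 0 to 61.0, 0.196 to 43.1 and 26.1 to 83.9 CPM.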
